A study of Homo sapiens with 2 samples.

Results

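The zinc finger genes of human chromosome 19 were examined in long-read RNA editing data from HEK293T cells. Members were the isoform loci of chromosome 19 whose largest exonic overlap on the same strand was with a protein-coding gene named ZNF followed by digits in GENCODE 44. The annotation holds 249 such genes, and 127 of them had an isoform model, at 128 loci. Of these, 90 loci of 89 genes had at least 1 listed edit site, out of 12178 listed loci in the whole data set. ZNF805 had 2 loci. The remaining 38 loci had a model but no listed site, and their read depth was not given in the tables used here.

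HEK293T, a human embryonic kidney line (HEK293XT in the cell line label), was fixed in methanol in both samples and incubated with APOBEC1, a cytidine deaminase, fused to a nanobody against rabbit IgG. In the RBFOX2-INSCRIBE sample an antibody to RBFOX2 was bound first, so that the fusion was held at this splicing regulator and converted nearby cytosines to uracils. The enzyme-only sample received the fusion without that antibody. Each sample gave 1 PacBio library, so every value compares 2 libraries rather than 2 conditions and no p-value was computed.

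Most C2H2 zinc finger proteins of chromosome 19 belong to families that expanded by tandem duplication and still lie side by side in clusters. Each finger is a short module in which a pair of cysteines and a pair of histidines hold a zinc ion, and a conserved linker joins it to the next finger. Many also carry a KRAB domain, which binds the corepressor TRIM28, and TRIM28 brings the histone methyltransferase SETDB1 and HP1 proteins to the DNA that the fingers recognize, often a transposable element. RBFOX2 itself binds the hexamer UGCAUG in RNA.

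The members fitted the name they were chosen by. A search of their translated coding sequences found at least 1 C2H2 finger in all 90, with a median of 12 and a maximum of 26 in ZNF845. ZNF414 and ZNF428 had 1 each. The core of a KRAB domain was found in 41 members, and in 57 with a looser pattern of that core. Not every locus held 1 gene: 14 overlapped the exons of more than 1 protein-coding gene, and ZNF404 and ZNF761 overlapped another gene type more than their own. Fingers of neighbouring genes are similar in sequence. The methods of the study kept primary alignments only, which gives a read that fits several paralogs to 1 of them, so single sites of close paralogs are uncertain.

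The few sequences on which the motif results below turn are given here first. The first pair is from the 3'UTR of ZNF567, the member with the most RBFOX2-INSCRIBE sites near a UGCAUG. The next 5 show the hexamer inside the finger repeat, where it lay at the same place of the finger in several genes. Each is the 30-base window of hg38 around the hexamer, 5' to 3' on the transcribed strand, with the hexamer in capitals. T stands for the U of the RNA.
ZNF567, chr19:36721088-36721117 (+), 3'UTR: aaacgtagttttTGCATGttttcaatttta
ZNF567, chr19:36721186-36721215 (+), 3'UTR: tctgtacattatTGCATGtggcagtagtgt
ZNF146, chr19:36237114-36237143 (+), coding: catctctcactgTGCATGtgagaagccata
ZNF799, chr19:12391740-12391769 (-), coding: gtttattacataTGCATGagagaacgcaca
ZNF555, chr19:2852619-2852648 (+), coding: cacacctaagaaTGCATGtgagaacccaca
ZNF77, chr19:2934390-2934419 (-), coding: gcagaaaacccaTGCATGtaaagtatgtgg
ZNF615, chr19:51993103-51993132 (-), coding: aaagacttccttTGCATGtactgaatgtgg

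Member RNAs were covered by few reads. A locus with a listed site had a median of 23 reads in the RBFOX2-INSCRIBE library (range 2 to 594) and 21 in the enzyme-only library (3 to 509), against medians of 96 and 87 over all listed loci. Only ZNF428 reached 500 reads. In the whole data set the RBFOX2-INSCRIBE table held 109357 sites at 10199 loci with 2431345 reads, and the enzyme-only table held 91111 sites at 10182 loci with 2233600 reads, counting only unshared sites, those not listed in the other library. A locus is listed only where it has an edit site and no listed edit fraction was under 0.200%, so no site with 1 converted read appeared at a locus of more than 499 reads.

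The members had about as many edit sites without the antibody as with it. There were 277 unshared sites in 3803 reads in the RBFOX2-INSCRIBE library and 284 in 3239 reads in the enzyme-only library. The ratio of sites was 0.975 (95% interval 0.824 to 1.16), while over all other listed loci it was 1.20 (1.19 to 1.21). All intervals are exact and cover counting error only, and they treat sites as independent although sites of 1 locus share its reads. Per 1000 locus reads, the members had 72.8 sites (64.5 to 81.9) with the antibody and 87.7 (77.8 to 98.5) without it. The ratio per read was 0.831 (0.701 to 0.984), below 1, and that of all other listed loci was 1.10 (1.09 to 1.11), above 1.

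The other comparison sets lay between the members and the rest. ZNF genes on other chromosomes, 142 loci, had a ratio per read of 0.967 (0.871 to 1.07). Other protein-coding loci of chromosome 19, 508 in all, had a ratio of 0.880 (0.847 to 0.915), and its interval overlapped that of the members. Restricted to loci listed in both libraries with at most 500 reads in each, the members were at 0.694 (0.571 to 0.842, 43 loci), the other chromosome 19 loci at 0.990 (0.9501 to 1.03) and ZNF genes elsewhere at 0.965 (0.863 to 1.08). Under this limit the interval of the members did not overlap that of either comparison set. The limit caps depth and does not match it between the sets. With the antibody it left 2563 reads at the 43 member loci and 58195 at 341 other chromosome 19 loci. The rates themselves depend on depth. At these loci the members had 72.6 sites per 1000 reads with the antibody, the lowest of the sets, and 105 without it, the highest. All other listed loci had 92.0 and 81.7, other chromosome 19 loci 83.1 and 83.9, and ZNF genes elsewhere 76.6 and 79.3.

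**Figure D1:**
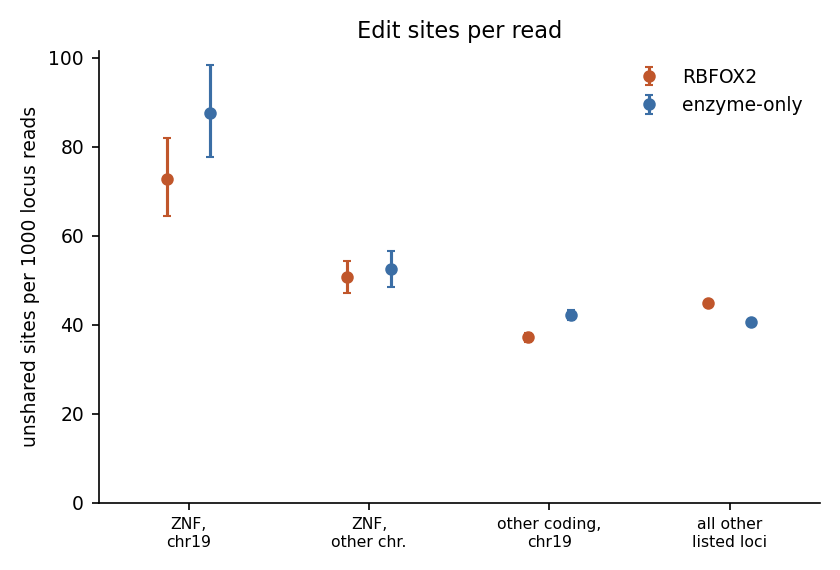
Unshared edit sites per 1000 locus reads (vertical axis) in the RBFOX2-INSCRIBE library (orange) and the enzyme-only library (blue), for the chromosome 19 ZNF loci, ZNF loci of other chromosomes, other coding loci of chromosome 19 and all other listed loci. Bars are exact Poisson 95% intervals, counting error only. Pooled over loci of any depth, the ZNF loci of chromosome 19 are the highest set, at 72.8 and 87.7. At loci of at most 500 reads in both libraries they are the highest without the antibody and the lowest with it. In the pooled values their order of the libraries is the opposite of that in all other loci, at 44.9 and 40.7.

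Over all members the ratio per read came near 1 when 4 loci were left out. Among loci of at most 500 reads in both libraries it was lower, with an interval that included 1. Of the 561 unshared member sites, those of ZNF580, ZNF146, ZNF444 and ZNF414 numbered 61 with the antibody and 107 without it, at 1092 and 1032 reads, a site ratio of 0.570 (0.409 to 0.788). Outside these 4 loci there were 216 sites in 2711 reads and 177 in 2207, and the ratio per read was 0.993 (0.811 to 1.22). Leaving out ZNF580 alone gave 0.900 (0.752 to 1.08), and leaving out the loci over more than 1 coding gene gave 0.871 (0.719 to 1.06). Each of these 3 intervals included 1. These ratios also count loci listed in 1 library only. Among the loci of at most 500 reads in both libraries, the ratio without the 4 was 0.807 (0.630 to 1.03). That value was below 1, with an interval that included 1. How far the lower ratio at these loci rests on the 4 was not tested.

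Which members were listed also differed. Of the 90, 75 were listed with the antibody and 59 without it, where 10199 and 10182 of all 12178 listed loci were. Among the 90, 44 were listed in both libraries, 31 only with the antibody and 15 only without it. The 44 in both had 189 sites with the antibody and 251 without it, at 3157 and 2899 reads, and the site ratio was 0.753 (0.620 to 0.913). Within them 13 had more sites with the antibody, 17 had fewer and 14 had the same number. The same counts over all listed loci are not given here. Most members had very few sites: 25 of the 75 listed with the antibody and 21 of the 59 listed without it had 1.

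Only the 4 loci named above had at least 20 unshared sites. None was over 2-fold higher in the RBFOX2-INSCRIBE library after scaling to the library totals, and 2 were over 2-fold lower. Of all 3604 loci with as many sites, 16.8% were over 2-fold higher and 14.6% over 2-fold lower. The median log2 ratio was -1.09 over the 4 and 0.08 over all 3604.

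ZNF580 had the most sites of all members, 21 in 420 reads with the antibody and 43 in 374 reads without it. The log2 ratio was -1.28 (-2.12 to -0.51). Its locus overlapped 3 coding genes, and 15 and 36 of the sites lay in exons of ZNF580 itself. ZNF146, a protein made of little else than its 10 fingers, had 21 sites in 383 reads and 33 in 373 reads, a log2 ratio of -0.90 (-1.78 to -0.08). At both loci the library with slightly more reads, that with the antibody, had fewer sites.

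ZNF444 had 8 sites in 198 reads with the antibody and 19 in 174 reads without it, a log2 ratio of -1.46 (-2.91 to -0.25). ZNF414, the member with a single finger among the 4, had 11 sites in 91 reads and 12 in 111 reads, and its log2 ratio of -0.38 (-1.71 to 0.92) included 0. Among the 15 members with at least 10 sites, 8 were over 2-fold lower, 7 of them listed in both libraries, and 0 over 2-fold higher, where the shares of all 5594 such loci were 17.2% and 19.4%.

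The 8 included ZNF134, with 1 site in 16 reads with the antibody and 11 in 15 reads without it, a log2 ratio of -3.20 (-9.15 to -0.94). ZNF296 had 3 sites in 70 reads and 10 in 76, at -1.85 (-4.50 to -0.04). Both intervals stayed below 0. ZNF230 had 4 sites in 15 reads and 10 in 8, and ZNF576 had 4 in 118 and 8 in 96. The intervals of these last 2, -3.71 to 0.21 and -3.45 to 0.64, included 0. ZNF324, the one of the 8 not listed with the antibody, had 12 sites in 87 reads without it. It is counted as lower on its 0 sites alone, with no depth given for them. ZNF302 was level, with 10 sites in 126 reads and 9 in 97.

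Some members were listed with the antibody only. ZNF616 had the most sites of them, 9 in 57 reads, of which 3 lay in annotated exons of the gene. ZNF468 had 8 sites in 18 reads, ZNF266 had 7 in 48, ZNF404 had 7 in 25, of which 2 lay in its annotated exons, and ZNF567 had 7 in 12. These loci were absent from the enzyme-only table, so their numbers without the antibody have no depth beside them. The deepest member, ZNF428, had 594 and 509 reads and 3 and 1 sites. Its sites needed at least 2 converted reads to be listed.

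**Figure D2:**
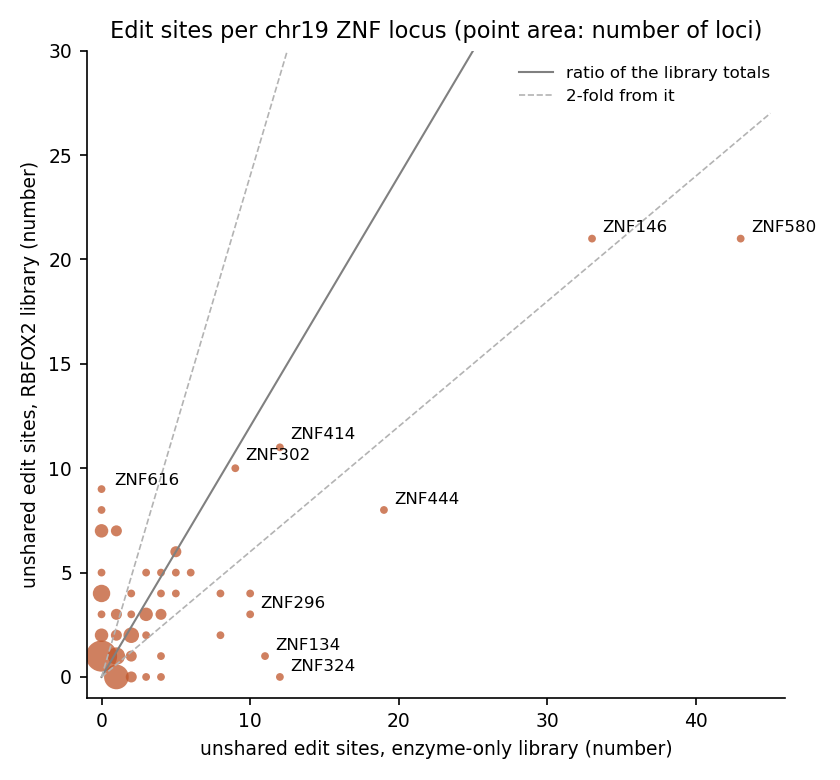
Unshared edit sites of each chromosome 19 ZNF locus in the enzyme-only library (horizontal axis) and the RBFOX2-INSCRIBE library (vertical axis). The area of a point is proportional to the number of loci at that place. The solid line is the ratio of the library totals and the dashed lines lie 2-fold from it. Every member with at least 20 sites lies below the solid line.

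Neighbouring members did not share 1 direction. Split at gaps over 1 Mb, they formed 15 clusters. The largest, from ZNF628 to ZNF446 (chr19:55476621-58481233), held 28 members with 85 sites in 1047 reads with the antibody and 122 in 960 without it, a ratio of 0.697 (0.522 to 0.927). It contains ZNF580, ZNF444, ZNF134 and ZNF324.

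The cluster from ZNF350 to ZNF761 (chr19:51964347-53455117) went the other way. It held 11 members, 8 of them listed with the antibody and 5 without it, with 28 sites and 6 sites. The site ratio was 4.67 (1.90 to 13.8), with 254 and 151 reads behind it. ZNF616 and ZNF468 gave 17 of the 28. Only ZNF611, with 3 and 2 sites, and ZNF761, with 1 and 1, were listed in both libraries. In the remaining 13 clusters the interval of the ratio included 1.

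Taken as sets, members with and without a KRAB core differed in the ratio of sites, but also in the ratio of reads. The site ratios below are not per read, and how far their difference follows the reads was not tested. Of the 41 with the core, 25 had more sites with the antibody, 7 had fewer and 9 had the same number, and of the 49 without it these were 19, 25 and 5. A locus listed in 1 library only counts here as more or fewer on a 0 with no depth behind it. Only 18 of the 41 and 26 of the 49 were listed in both, and the same counts over all listed loci are not given here. The 41 had 113 sites in 1012 reads with the antibody and 60 in 605 without it, a site ratio of 1.88 (1.37 to 2.62) at a read ratio of 1.67. The 49 without the core had 164 sites in 2791 reads and 224 in 2634, a site ratio of 0.732 (0.595 to 0.900) at a read ratio of 1.06. Over the loci listed in both libraries the first ratio was 1.29 (0.872 to 1.92, 18 loci), which included 1, and the second 0.626 (0.497 to 0.785, 26 loci). ZNF580, ZNF146, ZNF444 and ZNF414 all lacked the core, and without them the second ratio was 0.880 (0.669 to 1.16) over 45 loci, which included 1, and 0.688 (0.495 to 0.9504) over the 22 listed in both. With the looser core the ratios were 1.72 (1.32 to 2.27) and 0.645 (0.512 to 0.810).

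The edits of members were mostly single reads. In the RBFOX2-INSCRIBE library 269 of 277 unshared sites, and in the enzyme-only library 277 of 284, had 1 converted read. Counting shared sites, 3.82% (1.92 to 6.73) and 2.71% (1.18 to 5.27) had at least 2, against 16.7% and 11.8% in all other listed loci. At a locus of few reads a second converted read is less often reached, and these shares were not matched on depth.

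The positions with most converted reads show this. The highest was an intronic position of ZNF611 (chr19:52720482, minus strand), converted in 5 of 30 reads with the antibody and 5 of 36 without it, or 16.7% and 13.9%. Among unshared sites the highest counts were 2 with the antibody and 4 without it, the latter at a 5'UTR position of ZNF428 in 509 reads. A site of ZNF180 had 2 converted reads of 15, at the first linker residue after a finger. A site of ZNF559 had 2 of 36, and a 3'UTR site of ZNF224, a KRAB repressor, had 2 of 27 without the antibody. No member site was over 30% in both libraries. The 11 shared sites fell in 7 members, ZNF146 with 3 and ZNF580 and ZNF576 with 2 each among them. With the edited base in capitals, the windows of the ZNF611 and ZNF180 positions in hg38 are:
ZNF611, chr19:52720472-52720492 (-): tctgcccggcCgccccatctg
ZNF180, chr19:44477176-44477196 (-): agaactcataCtggggagaag

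Whether editing lay near UGCAUG was asked with each locus's own exonic cytosines as the reference. In the RBFOX2-INSCRIBE library 10 of 276 exonic member sites were within 50 nt of the hexamer, 3.62% (1.75 to 6.56), where 2.86% of the cytosines were. In the enzyme-only library the number was 11 of 284, 3.87% (1.95 to 6.82), where 2.88% of the cytosines were. The ratios of observed to reference share were 1.27 (0.613 to 2.30) and 1.34 (0.676 to 2.37), and each interval included 1. The order of the libraries depended on the window and the motif. Within 20 nt the ratios were 1.16 and 1.05, within 200 nt 1.08 (0.743 to 1.49) and 0.683 (0.433 to 1.01), and for GCAUG within 50 nt 0.920 and 1.16, with 1 inside every interval. All other listed loci gave 1.53 (1.49 to 1.58) with the antibody and 0.9496 (0.909 to 0.991) without it. The interval of the members with the antibody also included 1.53, so at this number of sites a difference from the rest was not detectable.

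By region, the intervals of the libraries overlapped. With the antibody 6 of 82 3'UTR sites were near the hexamer, 7.32% (2.73 to 15.2) against 4.13% of the 3'UTR cytosines, and 4 of 142 coding sites, 2.82% (0.773 to 7.06) against 4.08%. Without the antibody it was 0 of 95 3'UTR sites, which allows a share of up to 3.16%, where only 0.470% of the 3'UTR cytosines were near it, and 11 of 163 coding sites, 6.75% (3.42 to 11.8) against 4.77%. The 3'UTR sites came mostly from 1 gene: without ZNF567, 1 of 76 was near the hexamer. This split by region was made after the values were seen.

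ZNF567 had 7 sites in 12 reads, 6 of them in its 3'UTR, and 5 of these were within 50 nt of a UGCAUG. Of the cytosines in that 3'UTR, 34.8% lay as close. At the first of its hexamers shown above, at chr19:36721100-36721105, 4 cytosines were edited, at 36721064, 36721083, 36721091 and 36721110. The fifth edit, at 36721232, was 29 nt beyond the other hexamer. Each was converted in 1 of 12 reads, or 8.33%. Whether these fell on the same molecule is not given in the tables used here, and the locus was not listed without the antibody.

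Elsewhere the hexamer had at most 2 sites in a library. ZNF414 had 2 near it with the antibody and 1 without it, and ZNF799, ZNF805 and ZNF552 had 1 each with it. At the coding hexamer of ZNF146 shown above there were 0 sites in 383 reads with the antibody and 2 in 373 without it, at 36237082 and 36237117. Of the 85 UGCAUG occurrences in member exons, 7 had a RBFOX2-INSCRIBE site within 50 nt and 10 had an enzyme-only site.

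The hexamer recurred in the finger repeat, most often at 2 places of it. It was counted whether or not an edit lay near, but only in the 90 loci with a listed site. The 38 modelled loci without one were left out. The hexamer occurred in exons of 49 members, 57 times in coding sequence and 21 times in 3'UTRs, and 43 occurrences began inside a finger. Over all exonic cytosines, 3.16% of the members' and 2.47% of the other loci's were within 50 nt of it. Of the 35 that began in a finger of the standard 28-residue spacing, 13 began at the second base of residue 16, so that their CAU was the codon of the first zinc-binding histidine. These 13 came from 7 genes, 5 of them from ZNF14 and 3 from ZNF700, and ZNF146, ZNF799 and ZNF555 are the examples printed above. Another 8, in 8 genes, began at the last base of residue 27 and ran through the end of the linker into the first cysteine codon of the next finger, as in ZNF77 and ZNF615. The other 14 were spread over 7 places, with at most 4 at one.

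These repeated hexamers carried few edits. Of the 13 at residue 16, 1 had a RBFOX2-INSCRIBE site and 2 had enzyme-only sites within 50 nt. Of the 8 at residue 27, 0 and 2 did. The numbers are too small for an order.

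The base before the edit was most often A or U, the known preference of APOBEC1. Among exonic member sites the share was 67.0% (61.1 to 72.5) with the antibody, where 47.9% of the cytosines had one, and 61.3% (55.3 to 67.0) without it, where 43.6% had. The other listed loci were at 71.8% and 63.8%. Both libraries of the members were above their cytosines by more than the counting error.

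By genic region, coding sequence held 51.4% and 57.4% of the exonic member sites. The 3'UTR held 29.7% (24.4 to 35.5) with the antibody and 33.5% (27.99 to 39.3) without it, above the 22.8% and 22.6% of cytosines there. Without the loci over more than 1 coding gene the excess with the antibody was lost, at 22.4% (17.03 to 28.5) against 20.1% of cytosines, while without the antibody 28.2% (22.3 to 34.7) stood against 22.035%. In the other listed loci the 3'UTR held more sites, 42.0% and 35.9%, and also more of the cytosines, 28.5% and 27.8%. The 5'UTR held 10.1% (6.85 to 14.3) and 8.10% (5.203 to 11.9) of member sites, and 14.7% and 16.9% of the members' exonic cytosines lay in it. In the other listed loci it held 4.11% and 5.27% of sites and 9.30% and 9.19% of exonic cytosines. In both sets its share of sites was below its share of cytosines. Of the sites in exons of the isoform models that the annotation calls introns there were 10 with the antibody, 6 in ZNF616, 3 in ZNF611 and 1 in ZNF554, and 1 without it, in ZNF611.

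**Figure D3:**
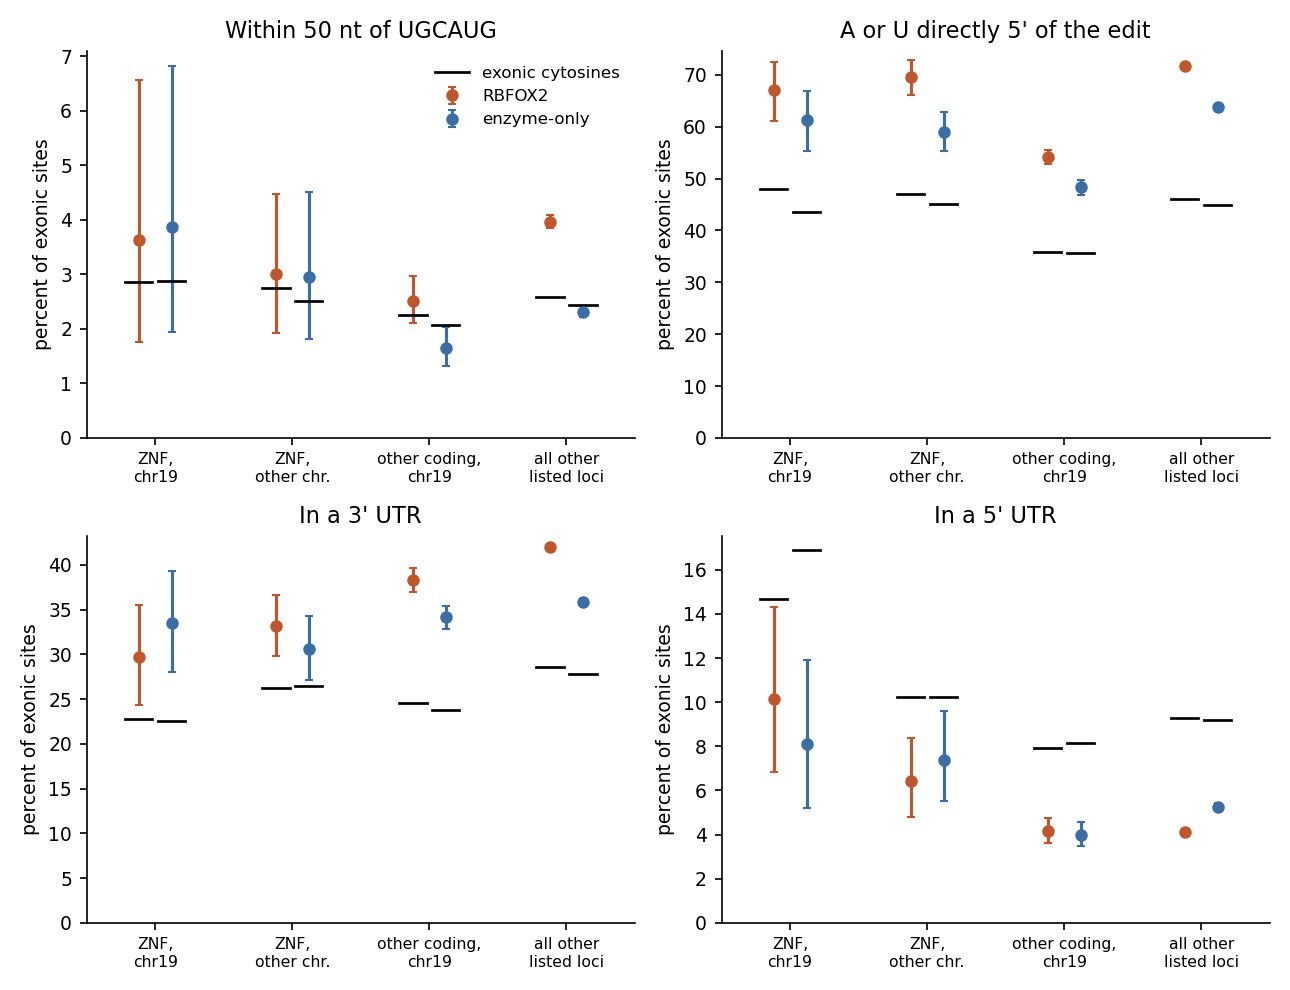
Shares of exonic edit sites (points, percent) near UGCAUG, after A or U, in 3'UTRs and in 5'UTRs, for 4 sets of loci in the RBFOX2-INSCRIBE (orange) and enzyme-only (blue) libraries. Bars are exact 95% intervals, counting error only, and black lines give the share of the exonic cytosines of the same loci. For the ZNF loci of chromosome 19 both intervals near UGCAUG reach across the black lines, and both shares after A or U lie above them.

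Coding edits fell on the fingers about as often as the cytosines did. The canonical coding sequences of 72 members held 139 sites with the antibody and 155 without it. Of these 48.9% (40.4 to 57.5) and 42.6% (34.7 to 50.8) were inside a finger, where 50.01% and 48.2% of the coding cytosines were.

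A finger repeat has an uneven supply of cytosines, and the edits can be set against it. In the 872 fingers of 28-residue spacing, the linker proline codon at residue 26 held 1767 coding cytosines and received 4 sites with the antibody and 8 without it. The histidine codons at residues 17 and 21 held 1035 and 1227 cytosines, with 8 and 6 sites with the antibody and 4 and 6 without it. Over the whole repeat the histidine codons had 14 of 54 sites with the antibody, 25.9% (15.0 to 39.7), and 10 of 54 without it, 18.5% (9.25 to 31.4), where 16.4% and 16.3% of the cytosines were. The linker had 9 and 13 of 54, and 22.3% and 22.4% of the cytosines. The cysteine codons, which hold few cytosines, had 2 in each library. All these intervals included the cytosine shares.

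**Figure D4:**
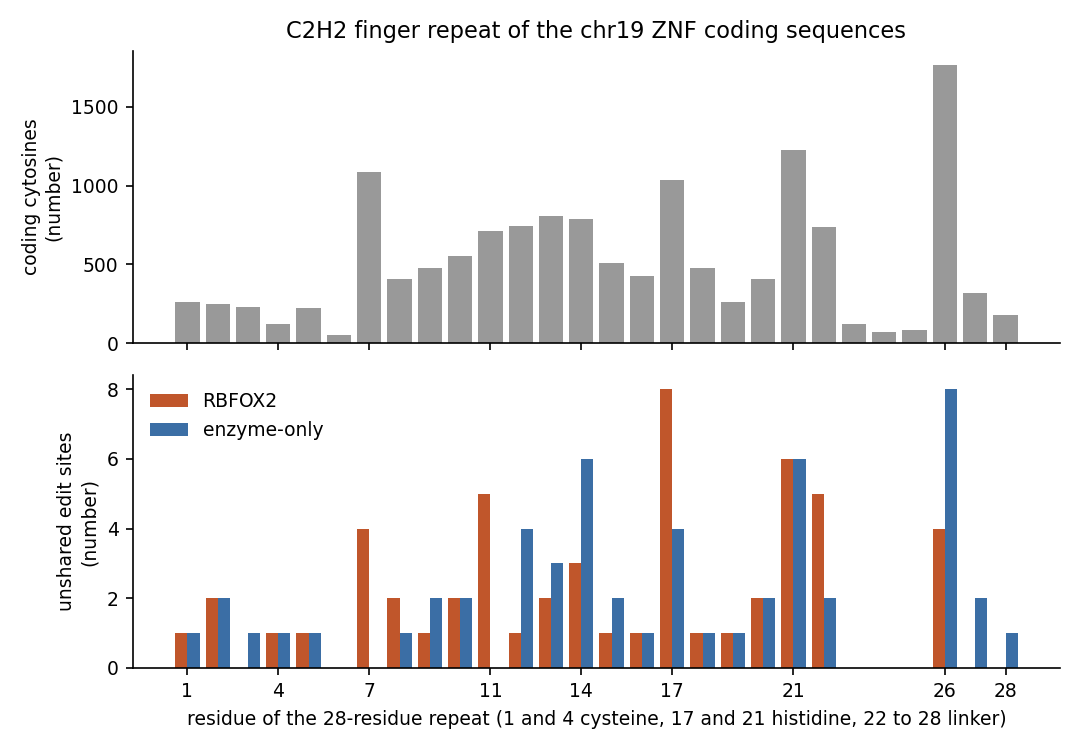
Coding cytosines (upper panel, number) and unshared edit sites (lower panel, number; RBFOX2-INSCRIBE orange, enzyme-only blue) at each residue of the 28-residue finger repeat, summed over 872 fingers of the chromosome 19 ZNF genes. Residues 1 and 4 are the cysteines, 17 and 21 the histidines and 22 to 28 the linker. Cytosines peak at residue 26, with 1767, and no single residue has more than 8 sites in a library.

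A C-to-U change can end a reading frame only at some codons. There were 5 such sites with the antibody, 3.60% (1.18 to 8.19), and 6 without it, 3.87% (1.43 to 8.23), where 7.36% and 7.13% of the coding cytosines would give a stop. Both shares were under their reference, and the interval reached it in each. With the antibody they were in ZNF557 (codon 337), ZNF565 (codon 60), ZNF573 (codon 140) and ZNF256 (codons 314 and 186). Without it they were in ZNF146 (codon 63), ZNF790 (codon 217), ZNF576 (codon 22), ZNF222 (codon 164), ZNF580 (codon 68) and ZNF256 (codon 296). Every one was converted in 1 read. Another 73 and 84 sites changed an amino acid and 61 and 65 were synonymous.

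By isoform, editsC is the share of an isoform's exonic cytosines that were listed as edited. Of 306 isoforms of the members, 285 had a site. The median editsC was 0.517% with the antibody and 0.370% without it, and 132 isoforms were higher with the antibody and 102 lower. Isoforms of 1 locus share sites, so these are not independent. An isoform of a locus not listed in a library was entered there as 0, with no depth behind it. This held for 31 loci listed only with the antibody and 15 only without it, so the medians and counts partly reflect which loci were listed. The same counts over all isoforms are not given here. The highest values were 5.07% in a ZNF302 isoform with the antibody and 8.53% in a ZNF580 isoform without it.

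The proteins through which KRAB zinc fingers act gave no common direction. All 18 genes of the partner list were listed. At the 10 of their loci with at least 20 sites, 2 were over 2-fold higher in the RBFOX2-INSCRIBE library and 1 over 2-fold lower, and the median log2 ratio was 0.18, beside 0.08 over all such loci. TRIM28, the corepressor that binds KRAB domains, had 2 sites in 1283 reads with the antibody and 2 in 1295 without it. SETDB1, the histone methyltransferase, had 14 in 71 reads and 10 in 70, and its partner ATF7IP had 2 and 1. SETDB1 and ATF7IP showed no difference beyond the counting error. At the depth of TRIM28 no site with 1 converted read could be listed in either library. Its 2 and 2 sites therefore cannot show whether the libraries differed.

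Among the HP1 proteins CBX1 had 17 and 6 sites, CBX3 19 and 10, and CBX5 9 and 10. The log2 ratio of CBX1 was 1.17 (-0.17 to 2.87), past 2-fold with an interval that included 0. In the HUSH complex, which also silences transposable elements, TASOR had 18 sites in 78 reads with the antibody and 2 in 92 without it, a log2 ratio of 2.62 (0.84 to 6.06). A second TASOR locus had 1 site, with the antibody. MPHOSPH8 went the other way, with 1 site in 263 reads and 8 in 266, at -2.77 (-8.73 to -0.36). PPHLN1 had 25 and 29 and the associated ATPase MORC2 had 2 and 3.

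The remodelling and deacetylase subunits CHD3, CHD4, HDAC1 and HDAC2 had 8 and 5, 6 and 1, 10 and 16, and 18 and 21 sites. CHD4, HDAC1, HDAC2 and the HP1 protein CBX1 had over 499 reads in both libraries. Their sites with 1 converted read could thus not be listed, and their counts are cut by this limit. HDAC1 had 1100 reads with the antibody and 951 without it, and HDAC2 had 1036 and 913. At these depths a site with 2 converted reads could be listed only without the antibody. The counts of HDAC1 and HDAC2 thus follow unlike limits in the libraries, and both loci enter the median log2 ratio of the partners. UHRF1, which guides maintenance DNA methylation, had 9 sites in 543 reads with the antibody and 18 in 445 without it, a log2 ratio of -1.22 (-2.60 to -0.03). It is the 1 partner locus counted above as over 2-fold lower. At 543 reads a site with 1 converted read could not be listed, while at 445 reads it could. The 2 counts of UHRF1 thus follow unlike limits, and its ratio and interval do not show a difference in editing. The methyltransferase DNMT1 had 1 site in 1781 reads without the antibody and was not listed with it. The demethylase KDM1A had 68 and 51. SMARCAD1, a remodelling ATPase, had 17 in 105 reads and 9 in 125, and 5 of the 17 and 0 of the 9 were within 50 nt of UGCAUG. Over all partner loci 10 of 246 sites with the antibody and 6 of 203 without it were that close.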

How the data were processed

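Edit sites from PacBio long-read cDNA were analysed in 2 libraries, 1 per group, assigned by the descriptions in the labels. The labels name a PacBio Iso-Seq kit and the build hg38. Since the methods of the study describe another kit, the tables could stem from a different run. In those methods the authors aligned full-length consensus reads with pbmm2, discarded alignments that were not primary, and used custom code to call C-to-U conversions. For each site the authors deposited a count of converted reads and a count of reads of the whole locus, 1 value per locus and library. The deposited edit fraction is the first divided by the second, so it understates editing in parts that only some isoforms hold. A deposited confidence score was used in no comparison. The deposited isoform models gave exon positions only.

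The listed positions, 225811 in all, were each checked to be a cytosine in hg38. Loci were assigned to GENCODE 44 genes by exonic overlap, and a position with several annotations was counted as coding first. Positions found in both tables were dropped except where counted as shared. The study's removal of known variants was not repeated. The reference share for a motif, base or region was computed exactly over the exonic cytosines of each site's own locus, weighted by its sites. UGCAUG was searched on the transcribed strand of the genome. Fingers were found in the translated coding sequences by the spacing of cysteines and histidines, and KRAB by its core stretch. The log2 ratio of sites per locus used a pseudocount of 0.5 and the library totals. Intervals are exact Clopper-Pearson or Poisson 95% intervals (Python 3.11.15, scipy 1.17.1, numpy 2.4.6, pandas 2.3.3, pysam 0.24.0, samtools 1.23.1), and a count of 0 was given the limit of 3 counts. The calculation of motif shares was tested on simulated data.

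The members, lists and named genes were chosen with earlier results of these data known. Named were the 10 members with the most sites, the highest and lowest 5 ratios among those with at least 20 sites, the 5 with the most sites near UGCAUG, the 3 with the most reads, the 10 sites with the most converted reads per library and all partner genes. Others named were chosen after their values were seen. Alternatives covered shared sites, converted reads, read depth, loci over several genes, the window, the motif, the pseudocount, the order of regions and the member with the most sites. The labels number the libraries 1 and 2, which pairs nothing.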

Additional observations from a re-analysis of the deposited data

How the results depend on the processing

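Of 120 values recomputed under alternatives, 92 stayed within their interval or within 1.5 times their count and 28 moved. The order of the libraries is no call here, and it turned for the ratio near UGCAUG, which was 1.16 and 1.05 with and without the antibody within 20 nt, 1.08 and 0.683 within 200 nt, and 0.920 and 1.16 for GCAUG. Most that moved came from keeping only sites with at least 2 converted reads, which left 8 unshared sites in the RBFOX2-INSCRIBE library and 7 in the enzyme-only library. Sites per 1000 reads then fell to 2.10 and 2.16 with and without the antibody, and shared sites rose to 27.3% and 12.5%. No site was near UGCAUG (ratios 0 and 0). With the antibody, A or U came before 75%, the 3'UTR held 12.5%, coding changes were 0% stop, 75% missense and 25% synonymous, and median editsC was 0.195%. Without it, coding sequence held 28.6%, against 50% with it, and the 3'UTR 57.1%. Coding changes without it were 0% stop, 0% missense and 100% synonymous, and 100% of coding sites were in fingers. The only coding sites left there were at codon 480 of ZNF324 and codon 171 of ZNF580. All shares under this setting rest on those few sites. At loci of at most 500 reads in both libraries, the enzyme-only value was 105 sites per 1000 reads. At loci of at least 10 reads in both it was 56.7 with the antibody. Counting positions as 3'UTR first gave coding shares of 40.2% and 47.2% and 3'UTR shares of 40.9% and 43.7%. Without loci over more than 1 coding gene, the 3'UTR share with the antibody was 22.4%, no longer beyond its cytosines, and 1 member was over 2-fold lower. With at least 10 sites 8 members were over 2-fold lower, and with at least 50 sites 1. Apart from the fewer sites or loci each setting leaves, causes were not tested. No paired analysis was possible because each group has 1 library.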
